A study of Mus musculus with 53 samples.

Results

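The chemokine system of the mouse sciatic nerve (SCN) was followed across 53 RNA-seq libraries. Members were the genes whose symbols begin with Ccl, Cxcl, Cx3cl, Xcl, Ccr, Cxcr, Cx3cr, Xcr or Ackr followed by a digit, a rule on names that used no measured value. It found 64 members among 49568 genes, 41 ligands and 23 receptors. Of these, 41 had a mean over all libraries of at least log2 of 10, about 3.3 on the log2 scale (27 ligands and 14 receptors). All mice were male C57BL/6J. Standard diet (SD) mice were the controls, high-fat diet (HFD) mice received a diet with 60% of its energy as fat from 5 weeks of age, and HFD-STZ mice also received streptozotocin, a toxin of insulin-producing cells, at 12 weeks in doses of 75 and 50 mg/kg given 3 days apart. At 16 weeks of age the libraries comprised 5 SD, 7 HFD and 5 HFD-STZ nerves. At 24 weeks they comprised 8 SD, 7 HFD and 8 HFD-STZ nerves, together with 7 HFD-DR and 6 HFD-STZ-DR nerves from mice returned to SD at 16 weeks for 8 weeks, a protocol called dietary reversal (DR). HFD served as a model of prediabetes and HFD-STZ as a model of type 2 diabetes, both with peripheral neuropathy, and the study asked what DR changes in the nerve.

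Chemokines are small secreted proteins that direct the migration of leukocytes through G protein-coupled receptors. CC and CXC ligands are named for the spacing of their conserved cysteines, and CX3C and XC ligands form smaller classes. Atypical receptors bind chemokines without classical G protein signalling and act as scavengers or transporters. In peripheral nerve, the monocyte-attracting ligands and their receptor Ccr2 are known for the recruitment of macrophages after injury.

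The files hold normalised log2 values without read counts, so the depth of each library is unknown and no counting error can be given. A difference of 1 on this scale is taken as a 2-fold difference. Schwann cell markers were high in each library (mean of Mbp, Pmp22, Prx and Sox10 between 17.8 and 18.7), as the tissue label requires. Skeletal muscle markers varied most, with a library mean between 6.52 and 17.1. The library HFD-STZ 24 weeks replicate 7 stood apart, with a mean correlation of 0.939 with the other libraries against a median of 0.981, and values without it are given beside several results of the HFD-STZ 24-week nerves. Nothing in the labels says which libraries share a litter, and the p-values set differences in means against the spread between these nerves.

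On the log2 scale with gene length removed (value minus log2 of the exon length in kb), Ccl11 (12.7), an eotaxin that attracts eosinophils, had the highest level of the 41 members. Ccl6 (10.1), a ligand of Ccr1, Cxcl12 (9.87), the tissue ligand of Cxcr4 and Ackr3, and Ackr3 itself (9.76) came next. The monocyte chemoattractants Ccl7 (9.32) and Ccl2 (8.50) and the blood-group chemokine receptor Ackr1 (9.14), known from venules, followed. Among the members that passed the mean, the lower end held Ccr9 (1.30), Xcr1 (1.91), which marks cross-presenting dendritic cells, and Ccl28 (2.05). The length counts all annotated exons of a gene (8176 bases for Cxcl12 and 10260 for Ccr9), so ranks could differ for the transcripts expressed. Among the role groups, 4 of 4 monocyte chemoattractants, 5 of 5 macrophage inflammatory CC ligands (Ccl3, Ccl4, Ccl5, Ccl6 and Ccl9), 3 of 3 interferon-inducible CXC ligands and 4 of 4 atypical receptors passed the mean, whereas 1 of 5 neutrophil-attracting CXC ligands (Cxcl1) and 5 of 11 CC receptors did. Members below it included the neutrophil receptors Cxcr1 and Cxcr2 and the lymphocyte receptors Ccr4, Ccr6, Ccr7, Ccr8 and Cxcr5. The nearest members on either side of 3.3 were Ccl4 (mean 3.76) above and Cxcl2 (3.26) below.

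**Figure D1:**
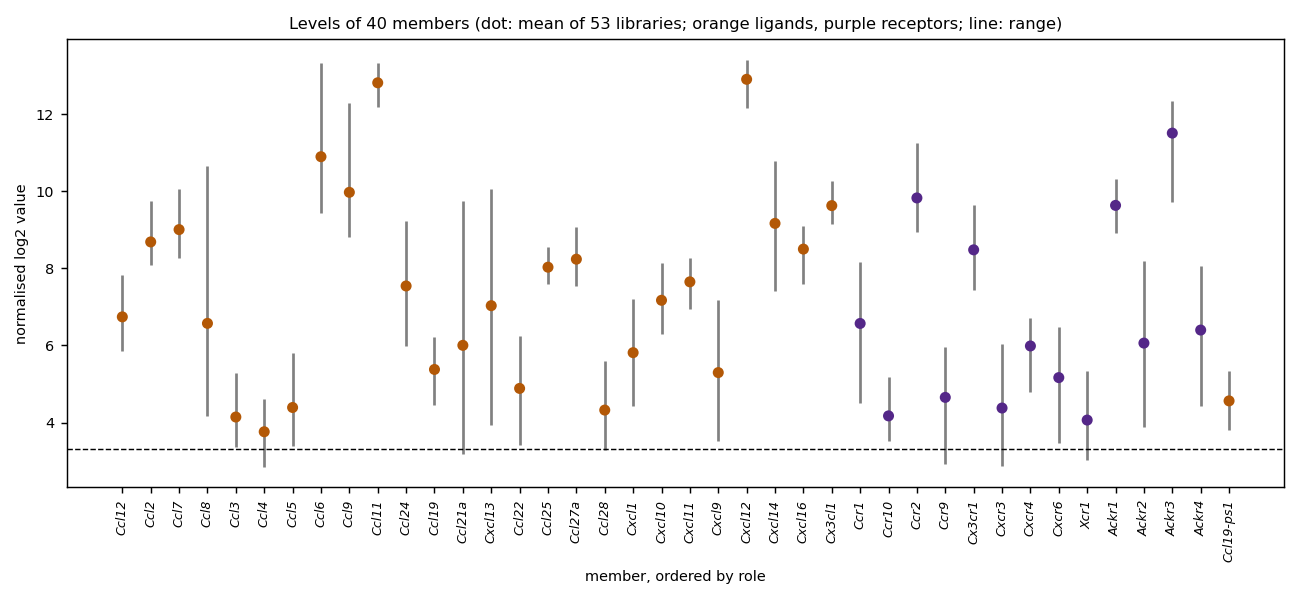
Normalised log2 value of 40 of the 41 members with a mean of at least 3.3 (dashed line), ordered by role. Dots are means over 53 libraries (orange ligands, purple receptors) and vertical lines run from the lowest to the highest library. Cxcl12 (12.2 to 13.4) and Ccl11 (12.2 to 13.3) varied little, whereas Ccl21a ranged from 3.18 to 9.75 and Ccl8 from 4.17 to 10.7.

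Some members share sequence with other genes, and their values are uncertain because reads could be split between copies or come from an overlapping gene in libraries without strand information. In the GENCODE M21 annotation of GRCm38, 41.8% of the 100-base stretches of Ccl19 transcripts and 50.3% of those of Ccl21a occur in transcripts of other genes, among them Ccl19-ps1 and Ccl21b. For Ccl27a the share was 50.2%. Cxcl11 is annotated as a polymorphic pseudogene in this assembly, and 41.7% of its exon bases overlap Gm2673 on the opposite strand. Exons of Ackr1 overlap Cadm3 over 25.7% of their length, and those of Cxcl16 overlap Zmynd15 over 18.3%. Cxcr4, Cxcl9, Cx3cl1, Ccl5, Ccl8 and Ccl9 had no exon overlap and no shared stretch.

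The 250 bases before the transcript start (RefSeq, GRCm38.p6) are shown for 3 members that recur in the comparisons, Cxcr4, Cxcl9 and Ccl9, with matches to searched letter strings in capitals. The strings, searched on both strands, were TATAAA (a core promoter element), GAAANNGAA (interferon-stimulated response element), TTCNNNGAA (interferon-gamma activated site) and GGANNTTCC (kappaB). A match describes letters only, and other forms of these sites, such as of kappaB, were not searched. The Cxcr4 promoter (chr1:128592300-128592549, minus strand) holds overlapping core-element matches on both strands, the one on the strand of the gene starting at position -30 from the start. The Cxcl9 promoter (chr5:92328080-92328329, minus strand) holds 1 interferon-response string at -175 and 1 core-element string at -195, and the Ccl9 promoter (chr11:83578637-83578886, minus strand) holds core-element strings at -224, -94 and -92, the first and second of them on the opposite strand.
Cxcr4: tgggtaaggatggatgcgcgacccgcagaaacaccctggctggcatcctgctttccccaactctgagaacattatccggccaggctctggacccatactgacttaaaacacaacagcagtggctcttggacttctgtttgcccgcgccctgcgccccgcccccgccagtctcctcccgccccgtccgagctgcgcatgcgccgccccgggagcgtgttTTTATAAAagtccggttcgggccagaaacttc
Cxcl9: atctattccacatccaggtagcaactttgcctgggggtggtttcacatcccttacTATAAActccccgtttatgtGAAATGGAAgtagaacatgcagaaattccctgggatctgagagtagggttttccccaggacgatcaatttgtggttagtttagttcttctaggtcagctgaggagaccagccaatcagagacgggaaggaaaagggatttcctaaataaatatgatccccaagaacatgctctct
Ccl9: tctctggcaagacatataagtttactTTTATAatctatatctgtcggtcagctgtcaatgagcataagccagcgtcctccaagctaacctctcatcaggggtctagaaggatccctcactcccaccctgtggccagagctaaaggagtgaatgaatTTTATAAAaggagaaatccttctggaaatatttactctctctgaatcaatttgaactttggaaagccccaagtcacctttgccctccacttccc
Promoters were found for 30 of the 41 members in 33 windows. TATAAA was found for 11 members and in 12.4% of all 32851 promoter windows, and GAAANNGAA for 6 members (Ccl19, Ccl3, Ccr2, Cxcl10, Cxcl14 and Cxcl9) and in 7.13% of windows. TTCNNNGAA was found for 1 member (7.02% of windows) and GGANNTTCC for 3 (3.59%).

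No member passed an adjusted p of 0.05 in limma's test (Benjamini-Hochberg over all genes tested) in any of 14 comparisons between groups or in 2 tests of a difference between effects. Over all genes, the share called was 0.00557% in HFD against SD at 16 weeks, 0.121% in HFD against SD at 24 weeks, 0.0336% in HFD-STZ against SD at 24 weeks, 0.0108% in HFD-DR against HFD, 0.0839% in HFD-STZ-DR against HFD-STZ, 0.0653% in HFD at 24 against 16 weeks and 0% in the other comparisons and both tests of a difference, so a count of 0 among 41 to 43 members is near this background. At the same adjusted p, the paper's count test (DESeq2) reported more genes than limma called here, in HFD and HFD-STZ against SD at both ages. The counts of 0 describe limma on the normalised values only. By alternative fits, Cxcr4, Ccl19 and Cxcl9 passed in single comparisons, as given beside each gene.

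At an unadjusted p under 0.05, the members were counted against the share of all genes. Against SD at 16 weeks, 6 of 41 members (14.6%) were past it in HFD, against 8.56% of genes, and 5 of 41 (12.2%) in HFD-STZ, against 8.41%. In HFD at 16 weeks the mean of 6 adipocyte markers was 1.88 above SD (exact permutation p = 0.0215), with 5 of 6 higher at the unadjusted p, and the mean of 4 B cell markers 0.92 above it (exact permutation p = 0.0139). With the adipocyte mean as a covariate the HFD count was 7, and the HFD-STZ count was 9 with it and 8 with the macrophage marker mean. T cell markers also had higher means than SD in both groups (0.52 and 0.50, exact permutation p = 0.00631 and 0.0397). Leaving out 1 library moved the first count between 5 and 13 (13 without SD 16 weeks replicate 5) and the second between 2 (without SD 16 weeks replicate 3) and 4. Against SD at 24 weeks, 6 of 41 (14.6%) were past it in HFD, against 9.06%, and 2 of 41 (4.88%) in HFD-STZ, against 5.99%, the latter count becoming 5 without HFD-STZ 24 weeks replicate 7 and 1 without SD 24 weeks replicate 6. The B cell marker mean was 0.62 above SD in HFD at 24 weeks (exact permutation p = 0.0196). HFD-STZ against HFD gave 7 of 43 at 16 weeks (16.3%, background 4.88%; 3 without HFD-STZ 16 weeks replicate 1) and 4 of 43 at 24 weeks (9.30%, background 5.6%; 2 without HFD-STZ 24 weeks replicate 3). Comparisons that use the same SD or HFD libraries share those values and are not independent.

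**Figure D2:**
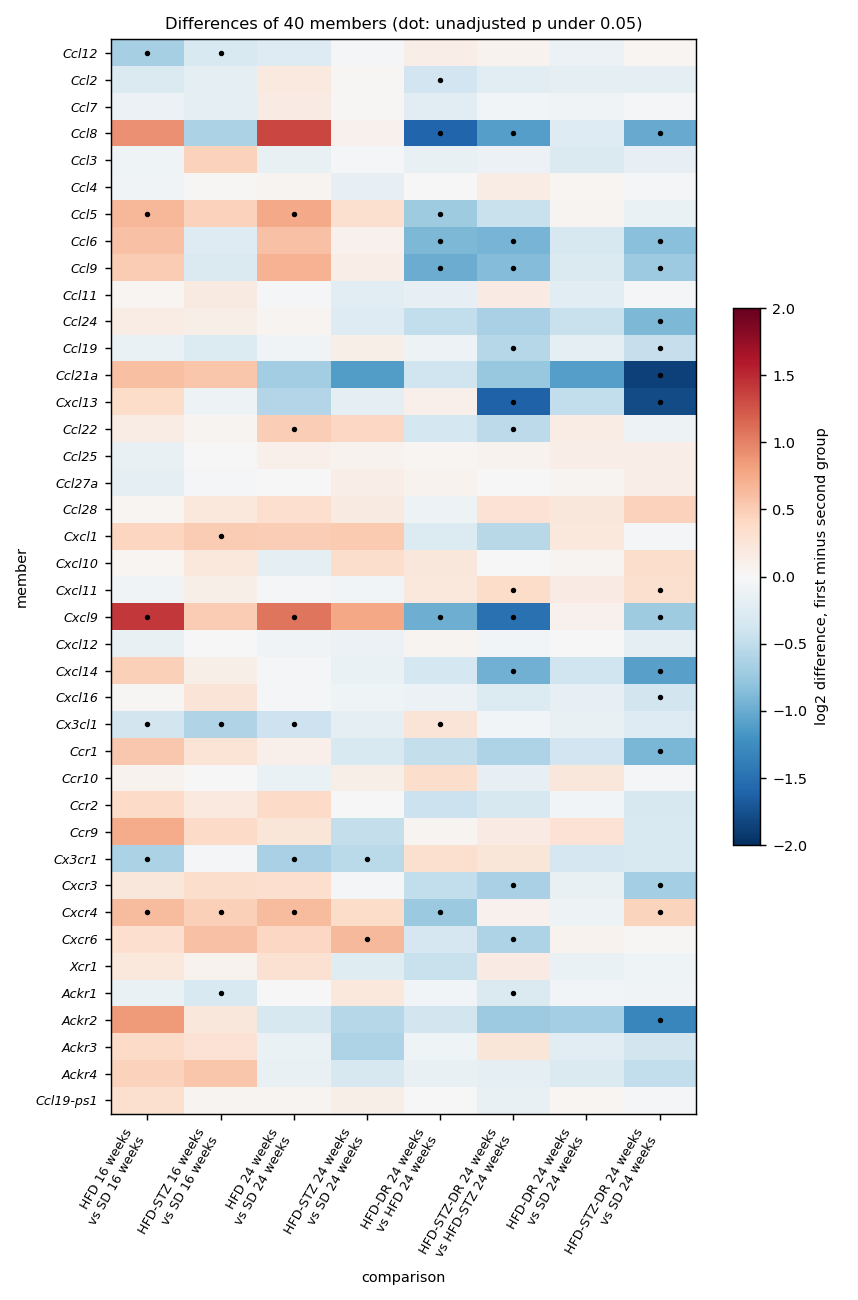
Log2 difference (first minus second group) of 40 of the 41 members with a mean of at least 3.3 in 8 comparisons, in the order of their roles, with red for higher and blue for lower in the first group. Dots mark an unadjusted p under 0.05, and no cell passed an adjusted p of 0.05. Cxcl9 was 1.42 higher in HFD than in SD at 16 weeks, and its difference after DR in the HFD-STZ model was -1.49.

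Cxcr4, the receptor of Cxcl12 that retains leukocytes and progenitors in tissues, was among the 5 members with the smallest p in 5 of the 6 main comparisons. In SD nerves at 16 weeks it stood at 5.35, 5.55, 5.73, 5.76 and 5.80, and in HFD-STZ nerves at 5.93, 5.96, 6.09, 6.21 and 6.34. In HFD nerves at 16 weeks it ran from 5.94 through a median of 6.18 to 6.70. Neither diseased group overlapped the SD group. The difference was 0.63 (SE 0.16; 1.54-fold) in HFD, with an adjusted p of 0.339 and an exact permutation p of 0.00126, and 0.47 (SE 0.16) in HFD-STZ, with an adjusted p of 0.572 and an exact permutation p of 0.00794. These exact p-values (two-sided) are the smallest that 7 against 5 and 5 against 5 nerves allow. The share of all genes without overlap between groups was not computed, here or for the members below. Members named by a small p were chosen on the same values, and their exact p-values are not adjusted for this choice.

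At 24 weeks, Cxcr4 ran from 5.10 through a median of 5.78 to 6.10 in SD and from 6.06 through 6.37 to 6.55 in HFD. The highest SD nerve reached just into the HFD range. The difference was 0.64 (SE 0.14), with an adjusted p of 0.110 in the pairwise fit and 0.0486 in a fit of all 8 groups that also held the run of library numbers. Over all 24 alternatives the adjusted p lay between 0.0486 and 0.248. In HFD-STZ at 24 weeks Cxcr4 ran from 5.39 through 6.07 to 6.55, a difference of 0.37 from SD (SE 0.17; adjusted p = 0.826), and these nerves overlapped both other groups.

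After DR, Cxcr4 was measured in both models. HFD-DR nerves ran from 4.78 through 5.81 to 5.99, below each HFD nerve, with a difference of -0.75 (SE 0.19; adjusted p = 0.332, exact permutation p = 0.000583). A fit of all 8 groups gave the same difference an adjusted p of 0.0407, and adding the run of library numbers gave 0.0225, while over all 23 alternatives the adjusted p reached 0.960. HFD-STZ-DR nerves ran from 5.82 through 6.15 to 6.57 and overlapped HFD-STZ nerves, with a difference of 0.09 (SE 0.18; adjusted p = 0.965). The DR effect in HFD-STZ minus that in HFD was 0.83 (SE 0.26; unadjusted p = 0.00359 by limma), and its adjusted p was 0.9999. By that test, 3 of 42 members were at an unadjusted p under 0.05, against 1.71% of genes: Cxcr4, Cx3cl1 (-0.32) and Ccl11 (0.34), named here after their values were seen. The count was 5 without HFD 24 weeks replicate 2 or HFD-DR 24 weeks replicate 2.

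**Figure D3:**
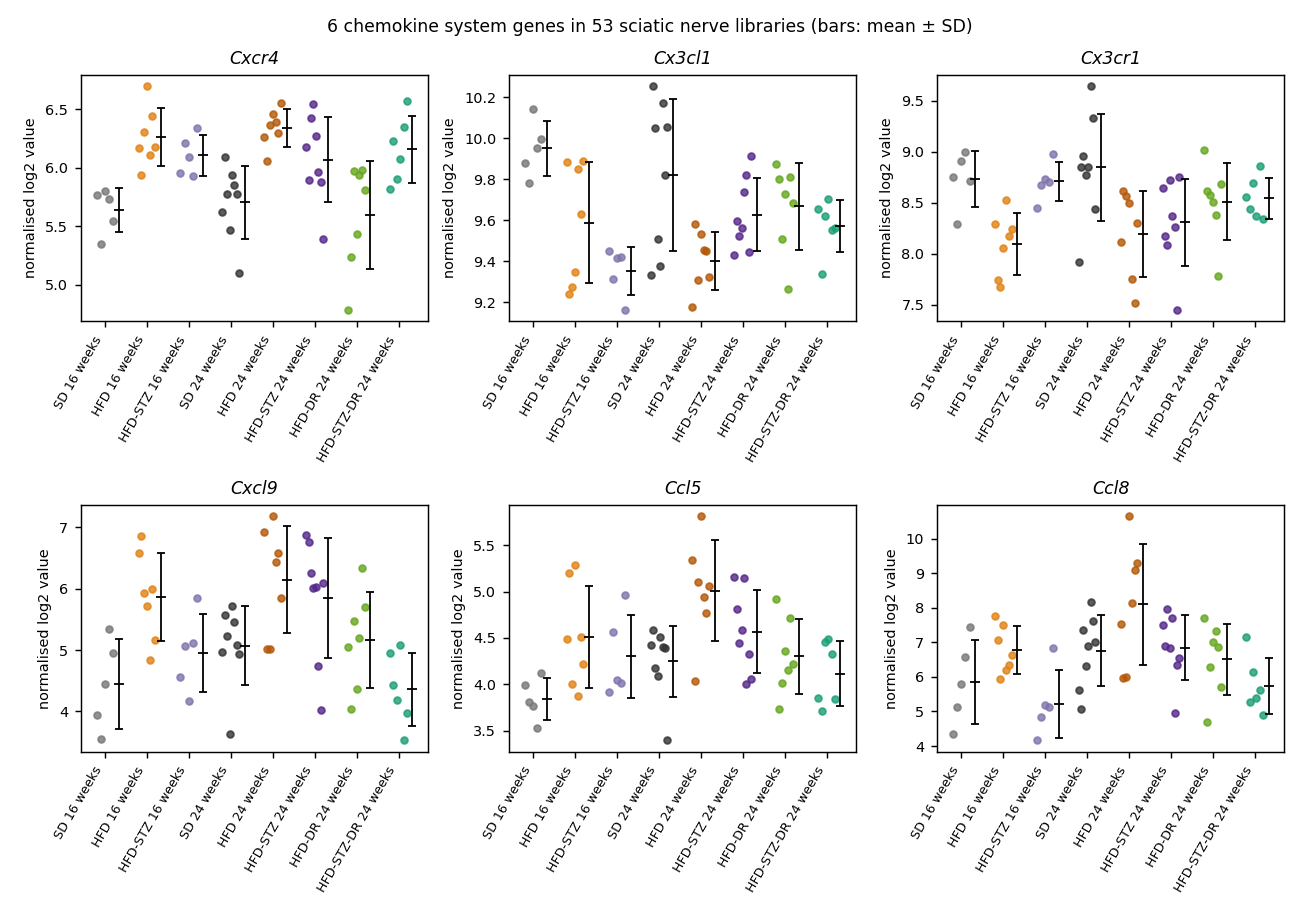
Normalised log2 values of 6 members in the 8 groups, with 1 dot for each nerve and bars for the mean and SD. Cxcr4 lay between 4.78 and 5.99 in HFD-DR nerves and between 6.06 and 6.55 in HFD nerves at 24 weeks, and Cx3cl1 between 9.16 and 9.45 in the 5 HFD-STZ nerves at 16 weeks and between 9.78 and 10.15 in the 5 SD nerves.

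Cx3cl1, the membrane-anchored ligand also called fractalkine, had lower means than SD in HFD and HFD-STZ at both ages, none past the adjusted p. At 16 weeks it stood at 9.78, 9.88, 9.95, 9.998 and 10.15 in SD and at 9.16, 9.31, 9.41, 9.42 and 9.45 in HFD-STZ. The ranges did not overlap, and the difference was -0.60 (SE 0.091; adjusted p = 0.143, exact permutation p = 0.00794). Over 19 alternatives the adjusted p lay between 0.0572 and 0.447. In HFD nerves at 16 weeks Cx3cl1 ran from 9.24 through 9.63 to 9.89, a difference of -0.36 (SE 0.14; adjusted p = 0.542), and these nerves overlapped SD. At 24 weeks the differences from SD were -0.42 in HFD (SE 0.14; adjusted p = 0.361, exact permutation p = 0.0186) and -0.19 in HFD-STZ (SE 0.14; adjusted p = 0.833). SD nerves at 24 weeks spread from 9.33 to 10.26, and HFD nerves from 9.18 to 9.58. HFD-DR nerves averaged 9.67 ± 0.21 (SD, n = 7), 0.26 above HFD (SE 0.098; adjusted p = 0.642).

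Cx3cr1, its receptor on monocytes and tissue macrophages, also had lower means in HFD. At 16 weeks it ran from 7.68 through 8.17 to 8.53 in HFD and stood at 8.29, 8.71, 8.75, 8.91 and 9.0 in SD, a difference of -0.63 (SE 0.16; adjusted p = 0.358, exact permutation p = 0.00631). In HFD-STZ at 16 weeks it averaged 8.71 ± 0.19 (SD, n = 5), 0.02 below SD (difference -0.02, SE 0.14) and 0.61 above HFD (SE 0.15; adjusted p = 0.987, exact permutation p = 0.00505). At 24 weeks the differences from SD were -0.65 in HFD (SE 0.23; adjusted p = 0.385) and -0.54 in HFD-STZ (SE 0.22; adjusted p = 0.815). The 24-week groups overlapped, with SD from 7.92 to 9.65 and HFD from 7.52 to 8.61.

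Cxcl9, an interferon-gamma-induced ligand of Cxcr3 on activated T cells, had higher means in HFD and lower means after DR. SD nerves at 16 weeks stood at 3.55, 3.94, 4.45, 4.95 and 5.35, and HFD nerves ran from 4.84 through 5.93 to 6.86. The difference was 1.42 (SE 0.38; adjusted p = 0.392, exact permutation p = 0.00884), and 0.62 with the mean of 6 adipocyte markers as a covariate. The mean of 6 T cell markers, of which Cd3d and Cd8a were below 3.3, lay between 3.36 and 4.18 in these HFD nerves and between 3.10 and 3.37 in SD, with 4 of 4 tested markers higher (exact permutation p = 0.00631), and its part in the difference was not tested. At 24 weeks HFD nerves ran from 5.02 through 6.44 to 7.18 and SD nerves from 3.62 through 5.15 to 5.72, a difference of 1.07 (SE 0.36; adjusted p = 0.366). With HFD-STZ the difference from SD at 24 weeks was 0.77, with an adjusted p of 0.833. HFD-STZ-DR nerves ran from 3.53 through 4.31 to 5.07 and HFD-STZ nerves from 4.02 through 6.06 to 6.87. The difference was -1.49 (SE 0.42; adjusted p = 0.259), and without HFD-STZ 24 weeks replicate 7 it was -1.75, with an adjusted p of 0.0344. With the adipocyte marker mean as a covariate the difference was -0.40 (unadjusted p = 0.375 by limma). For the other interferon-inducible ligands the HFD differences from SD were 0.04 at 16 weeks and -0.17 at 24 weeks (Cxcl10) and -0.07 and -0.04 (Cxcl11). In HFD-STZ-DR against HFD-STZ they were not lower, with differences of 0.0054 for Cxcl10 (adjusted p = 0.997) and 0.37 for Cxcl11 (adjusted p = 0.600). Cxcr3, their shared receptor, averaged 4.54 in SD, 4.88 in HFD and 3.85 in HFD-STZ-DR at 24 weeks.

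Ccl5, a T cell product that attracts T cells and monocytes, averaged 4.25 ± 0.38 (SD, n = 8) in SD and 5.01 ± 0.54 (n = 7) in HFD at 24 weeks. HFD nerves ran from 4.03 through 5.06 to 5.81 and SD nerves from 3.40 through 4.40 to 4.58. A single HFD nerve lay within the SD range. The difference was 0.76 (SE 0.23; adjusted p = 0.303, exact permutation p = 0.00622). HFD-DR nerves ran from 3.74 through 4.22 to 4.92, a difference of -0.71 from HFD (SE 0.25; adjusted p = 0.629). At 16 weeks Ccl5 was 0.67 above SD in HFD (SE 0.26; adjusted p = 0.554).

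Ccl6 and Ccl9, rodent CC ligands of Ccr1 encoded near each other on chromosome 11 and made by myeloid cells, had lower means after DR in both models. Ccl9 ran from 9.31 through 10.94 to 12.27 in HFD and from 9.04 through 9.87 to 10.12 in HFD-DR, a difference of -0.99 (SE 0.34; adjusted p = 0.629). In HFD-STZ it ran from 8.90 through 10.44 to 10.97 and in HFD-STZ-DR from 9.07 through 9.29 to 9.65, a difference of -0.87 (SE 0.30; adjusted p = 0.484). Both DR groups had a narrower range than the group they are compared with and overlapped its lower part. Compared with HFD-STZ, the Ccl6 difference in HFD-STZ-DR was -0.93 (SE 0.33; adjusted p = 0.511), and in HFD-DR against HFD it was -0.90 (SE 0.38; adjusted p = 0.716). With the adipocyte marker mean as a covariate, the HFD-STZ-DR differences were 0.0452 for Ccl9 and 0.11 for Ccl6, on the other side of 0. The HFD-DR difference of Ccl9 was -0.32 with the macrophage marker mean as a covariate and -0.59 with the adipocyte mean, and that of Ccl5 was -0.44 and -0.49. Without HFD-STZ 24 weeks replicate 7 the HFD-STZ-DR differences were -1.03 for Ccl9 (adjusted p = 0.127) and -1.08 for Ccl6 (adjusted p = 0.188). Ccl3 and Ccl4, macrophage inflammatory proteins, differed by -0.14 and -0.01 in HFD-DR against HFD.

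Of the monocyte chemoattractants, Ccl12 had its lowest group mean in HFD at 16 weeks. It ran from 6.19 through 6.43 to 6.68 there and stood at 6.86, 6.97, 7.09, 7.2 and 7.47 in SD. The ranges did not overlap, and the difference was -0.67 (SE 0.14; adjusted p = 0.245, exact permutation p = 0.00126). HFD-STZ nerves at 16 weeks stood at 6.72, 6.72, 6.82, 6.84 and 6.92, above each HFD nerve and with 1 nerve inside the SD range (difference from SD -0.31, SE 0.14; adjusted p = 0.586). At 24 weeks the HFD difference was -0.25 (SE 0.27; adjusted p = 0.782). Ccl2 differed from SD by -0.28 to 0.20 and Ccl7 by -0.18 to 0.16 in the 4 comparisons of HFD or HFD-STZ with SD.

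Ccl8, a ligand of monocyte and T cell receptors that the study lists among genes chosen on these samples, had the widest spread of the monocyte chemoattractants. HFD nerves at 24 weeks ran from 5.98 through 8.13 to 10.65 and SD nerves from 5.07 through 6.95 to 8.16. The difference was 1.34 (SE 0.65; adjusted p = 0.568, exact permutation p = 0.0892), and the ranges overlapped. HFD-DR nerves ran from 4.70 through 6.85 to 7.70, a difference of -1.59 (SE 0.68; adjusted p = 0.716), and HFD-STZ-DR differed from HFD-STZ by -1.10 (SE 0.44; adjusted p = 0.650). At 16 weeks Ccl8 averaged 6.78 ± 0.69 (SD, n = 7) in HFD and 5.23 ± 0.98 (n = 5) in HFD-STZ, a difference of -1.55 (SE 0.42; adjusted p = 0.987).

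The lymphoid tissue ligand Ccl19, which guides Ccr7-bearing T and dendritic cells, had its lowest group mean in HFD-STZ-DR. Its HFD-STZ nerves at 24 weeks ran from 5.43 through 5.64 to 5.90 and its HFD-STZ-DR nerves from 4.90 through 5.08 to 5.33, without overlap. The difference was -0.58 (SE 0.13; adjusted p = 0.124, exact permutation p = 0.000333, the smallest that 6 against 8 nerves allow). The adjusted p was 0.0449 without HFD-STZ 24 weeks replicate 6 and 0.0494 without replicate 7, and lay between 0.0449 and 0.381 over 23 alternatives. HFD-STZ nerves at 16 weeks also lay below those at 24 weeks (difference at 24 weeks 0.55, SE 0.16; adjusted p = 0.289). Reads of Ccl19 are uncertain because of its copies, as given above. Cxcl13, the B cell attractant, ran from 5.49 to 9.39 in HFD-STZ and from 5.01 to 7.15 in HFD-STZ-DR, a difference of -1.61 (SE 0.52; adjusted p = 0.400), -1.91 without HFD-STZ 24 weeks replicate 7 (adjusted p = 0.0730), -1.06 with the macrophage marker mean as a covariate and 0.00545 with the adipocyte marker mean as a covariate.

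Cxcl12 and Ccl11 had the highest means of the members before gene length was removed, and their differences were small. Cxcl12 lay within -0.15 to 0.05 and Ccl11 within -0.21 to 0.18 in the 6 main comparisons. Ackr3, the scavenger of Cxcl12, ranged from -0.61 (HFD-STZ against SD at 24 weeks, or -0.40 without HFD-STZ 24 weeks replicate 7) to 0.38. Ccr2, the receptor of the monocyte chemoattractants, was 0.38 above SD in HFD at both ages (adjusted p = 0.588 and 0.669), and its difference in HFD-DR from HFD was -0.43 (adjusted p = 0.749). Cxcl14, a skin and tissue ligand, had a lower mean in the HFD-STZ model after DR (difference -0.96, SE 0.36; adjusted p = 0.552). Cxcl1, a neutrophil attractant, was 0.43 to 0.52 above SD in the 4 HFD and HFD-STZ comparisons (smallest adjusted p = 0.586, in HFD-STZ at 16 weeks). Ackr1 had a lower mean in HFD-STZ than in SD at 16 weeks (difference -0.30, SE 0.12; adjusted p = 0.586). At 24 weeks Cxcr6 was 0.65 above SD in HFD-STZ (SE 0.26; adjusted p = 0.813), and Ccl22, a ligand of Ccr4, 0.42 above it (SE 0.20; adjusted p = 0.826). Without HFD-STZ 24 weeks replicate 7 these differences were 0.79 and 0.56 (adjusted p = 0.428 and 0.367). Cxcl16, the ligand of Cxcr6, differed by -0.28 to 0.26 in the 6 main comparisons.

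After DR, members were counted once more at the unadjusted p. In HFD-DR against HFD, 9 of 42 (21.4%) were past it, against 6.72% of genes, and 8 of them were lower, against 4.57% of genes. In HFD-STZ-DR against HFD-STZ the count was 13 of 41 (31.7%), against 6.48%, with 12 lower, against 4.51%. HFD-STZ-DR against SD gave 16 of 41 (39.0%), against 9.16%, with 14 lower, against 4.67%. HFD-DR against SD gave 0 of 41, against 5.15% of genes and with 0 past an adjusted p, and HFD-STZ-DR against HFD-DR 6 of 41 (14.6%), against 3.58%. The HFD-STZ-DR count against HFD-STZ was 18 without HFD-STZ 24 weeks replicate 7. The HFD-DR count was 14 without HFD 24 weeks replicate 2 and 5 without HFD 24 weeks replicate 4 or HFD-DR 24 weeks replicate 2. The count for HFD-STZ-DR against HFD-DR was 15 without HFD-DR 24 weeks replicate 2 and 2 without HFD-STZ-DR 24 weeks replicate 2, and that of HFD-DR against SD was 2 without SD 24 weeks replicate 1 or 3. Lower at this p in both models were the ligands Ccl6, Ccl8, Ccl9 and Cxcl9. Lower in HFD-DR were also the monocyte chemoattractant Ccl2 (-0.39), Ccl5 and Cxcr4, and lower in HFD-STZ-DR also the lymphoid ligands Ccl19 and Cxcl13 together with Ccl22, Cxcl14, Cxcr3, Cxcr6 and Ackr1. Higher at this p were Cx3cl1 in HFD-DR (0.26) and Cxcl11 in HFD-STZ-DR (0.37). A difference between the models was tested only by the comparison of DR effects given above. The median difference of the tested members was -0.16 in HFD-DR and -0.21 in HFD-STZ-DR, beside -0.00185 and 0.00691 over all genes.

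Marker lists of other cells differed in some of these comparisons. The mean of 6 adipocyte markers (Adipoq, Plin1, Cidec, Fabp4, Lipe and Cfd, each with a mean above 3.3) lay between 9.40 and 12.2 in HFD-STZ-DR and between 11.5 and 14.1 in HFD-STZ, a difference of -1.86 (exact permutation p = 0.00833), and 5 of 6 were lower at the unadjusted p. Against SD at 24 weeks it differed by -1.40 (exact permutation p = 0.0123), with 6 of 6 lower. In HFD-DR against HFD the adipocyte mean differed by -0.74 (exact permutation p = 0.216), with 3 of 6 markers lower and 1 higher at the unadjusted p. With that mean as a covariate, an alternative added after seeing the data, 4 members in place of 13 were past the unadjusted p in HFD-STZ-DR against HFD-STZ, 1 in place of 16 against SD, and 6 in place of 9 in HFD-DR against HFD. The mean of 8 macrophage markers (Adgre1, Cd68, Csf1r, Aif1, Cd163, Mrc1, Lyz2 and Fcgr1) lay between 9.97 and 11.7 in HFD and between 10.1 and 10.6 in HFD-DR, with 8 of 8 lower in HFD-DR and 3 of 8 at the unadjusted p. The macrophage mean differed by -0.45 in HFD-DR against HFD (exact permutation p = 0.0804). In HFD-STZ-DR it differed by -0.27 from HFD-STZ and by -0.37 from SD (exact permutation p = 0.235 and 0.0946). With the macrophage mean as a covariate, the counts of members were 11, 7 and 4, in the same order as with the adipocyte mean. In HFD-DR, mast cell and dendritic cell marker means also differed from HFD, by -0.97 and -0.37 (exact permutation p = 0.0111 and 0.0256). The skeletal muscle marker mean was 2.77 above HFD there (exact permutation p = 0.0746), with 4 of 6 markers higher at the unadjusted p. Against SD, the mast cell mean differed by -0.86 in both DR groups (exact permutation p = 0.0107 in HFD-DR and 0.0230 in HFD-STZ-DR) and the endothelial mean by -0.26 in HFD-STZ-DR (exact permutation p = 0.0393). In HFD-STZ at 24 weeks the mast cell mean differed by -0.69 from SD and by -0.79 from HFD (exact permutation p = 0.0485 and 0.0415), and the B cell and dendritic cell means by -0.67 and -0.37 from HFD (exact permutation p = 0.0152 and 0.0441). The part of these other lists in the members' values was not tested. These marker p-values are not adjusted for the 11 lists and 14 comparisons. The adipocyte covariate raised other counts at this p, to 8 in place of 2 in HFD-STZ against SD and to 12 in place of 4 in HFD-STZ against HFD at 24 weeks. In a bulk nerve, fewer cells of a type and less RNA per cell cannot be told apart.

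Age was compared within each diet. In SD nerves at 24 against 16 weeks, 5 of 41 members (12.2%) were past the unadjusted p, against 10.5% of genes, namely Ccl21a, Ccl24, Ackr2, Ackr3 and Ccr1, of which Ccl21a, Ccl24 and Ackr2 were named after their values were seen. Ccl21a, a lymphatic ligand of Ccr7, averaged 7.33 at 24 and 4.71 at 16 weeks, a difference of 2.62 (SE 0.78; adjusted p = 0.353, exact permutation p = 0.0148). The adipocyte marker mean differed by 1.68 between the same groups (exact permutation p = 0.0326), and with it as a covariate 1 member was past the unadjusted p. The T cell, B cell and mast cell marker means differed as well, by 0.41, 0.54 and 1.36 (exact permutation p = 0.0163, 0.0179 and 0.0466), and the Schwann cell mean by -0.28 (exact permutation p = 0.0319), and their part was not tested. The SD count lay between 1 (without SD 24 weeks replicate 5 or 6 or SD 16 weeks replicate 1 or 2) and 12 (without SD 16 weeks replicate 5). HFD gave 2 of 43 (4.65%), against 5.89% of genes, or 7 without HFD 24 weeks replicate 2 and 1 without HFD 24 weeks replicate 4 or HFD 16 weeks replicate 3 or 6, and HFD-STZ 4 of 42 (9.52%), against 12.5%, or 11 without HFD-STZ 24 weeks replicate 6 or 7. With age the mast cell mean was 1.25 higher in HFD (exact permutation p = 0.00408), and the Schwann cell mean differed by -0.24 in HFD and -0.29 in HFD-STZ (exact permutation p = 0.0134 and 0.0171). In the test of the HFD effect at 24 minus 16 weeks, 0 of 41 members passed the adjusted p, and Cxcr4 differed by 0.01 (SE 0.20).

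The wider pathway was read from 2 lists. Of 12 measured relatives and modifiers of chemokines, such as Pf4, Dpp4 and Cd74, 0 passed the adjusted p in any comparison, and 0 to 3 were higher and 0 to 3 lower at the unadjusted p in the 6 main comparisons, where 5.99 to 9.06% of all genes were past it in either direction. Of 32 genes that signal below chemokine receptors, 1 passed, Rgs1, in HFD against SD at 24 weeks, where 0.121% of all genes passed. At the unadjusted p, 7 of 32 were higher and 0 lower in HFD against SD at 16 weeks (8.56% of all genes past it), 3 higher and 1 lower at 24 weeks (9.06%), and 0 higher and 5 lower in HFD-DR against HFD (6.72%), and 1 or 2 in total were past it in the other 3 main comparisons. Rgs1 is a GTPase-activating protein that shuts off Gi signalling and dampens leukocyte migration to chemokines. It averaged 3.94 ± 0.53 (SD, n = 8) in SD and 6.34 ± 0.88 (n = 7) in HFD, and rose by 2.40 (SE 0.34) with an adjusted p of 0.00506. The lowest HFD nerve (5.30) lay above the highest SD nerve (4.59). In HFD-STZ at 24 weeks Rgs1 was 1.20 above SD (SE 0.38; adjusted p = 0.698). Like Ccl8, Rgs1 is among the genes that the study lists as chosen on these samples. At 16 weeks it averaged 5.24 ± 1.51 (SD, n = 7) in HFD and 3.67 ± 0.67 (n = 5) in SD (difference 1.57; adjusted p = 0.566), and in HFD-DR it averaged 4.31 ± 1.00 (SD, n = 7; difference from HFD -2.03, adjusted p = 0.270).

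Ligands and their receptors were compared across nerves after removing group means. Of 14 pairs in which both members passed the mean, 7 had an adjusted p under 0.05 for Pearson's r (100000 permutations within groups, n = 53), 6 for Spearman's rho, 7 with the run of library numbers removed and 5 without the 2 nerves farthest from the ligand median. Ccl6 and Ccl9 followed Ccr1 most closely, with r = 0.85 and 0.82 (rho = 0.85 and 0.81, raw permutation p = 1e-05 for each, the smallest these permutations give, adjusted p = 4.67e-05, and r = 0.82 and 0.79 without the 2 nerves). Cxcl12 followed Ackr3 (r = 0.69, rho = 0.66, adjusted permutation p = 4.67e-05, r = 0.63 without the 2 nerves). It did not follow Cxcr4 (r = -0.01, rho = 0.02, adjusted permutation p = 0.973 over 53 nerves). Cxcl9 and Cxcr3 had r = 0.48 (rho = 0.46, adjusted permutation p = 0.00178, r = 0.46 without the 2 nerves), and Cxcl16 and Cxcr6 had r = 0.47 (rho = 0.51, adjusted permutation p = 0.00496, r = 0.50 without them). For Cx3cl1 and Cx3cr1, r was 0.39 (rho = 0.36, adjusted permutation p = 0.0298) and 0.33 without the 2 nerves, where the adjusted p was 0.0796. For Ccl2 and Ccr2, r was 0.37 (rho = 0.23, adjusted permutation p = 0.0266) and 0.22 without the 2 nerves, where the adjusted p was 0.218. Neither this pair nor that of Cx3cl1 was past an adjusted p of 0.05 without them. With the run of library numbers removed, r was 0.46 for Cx3cl1 and Cx3cr1 and 0.35 for Ccl2 and Ccr2 (adjusted permutation p = 0.0121 and 0.029). Ccl7 and Ccl12 with Ccr2 and Cxcl10 with Cxcr3 had r between -0.01 and 0.26. No share over other pairs of genes was computed beside the count of 7. Members of these pairs also correlated with the macrophage marker mean, as for Ccr1 (r = 0.79), Ackr3 (0.76), Cxcl12 (0.69), Cxcl16 (0.68) and Cxcr3 (0.68). Ccl2, Cx3cr1 and Cx3cl1 had r = 0.22, 0.25 and -0.09 with that mean. The part of macrophage content in the relations of the pairs was not tested.

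**Figure D4:**
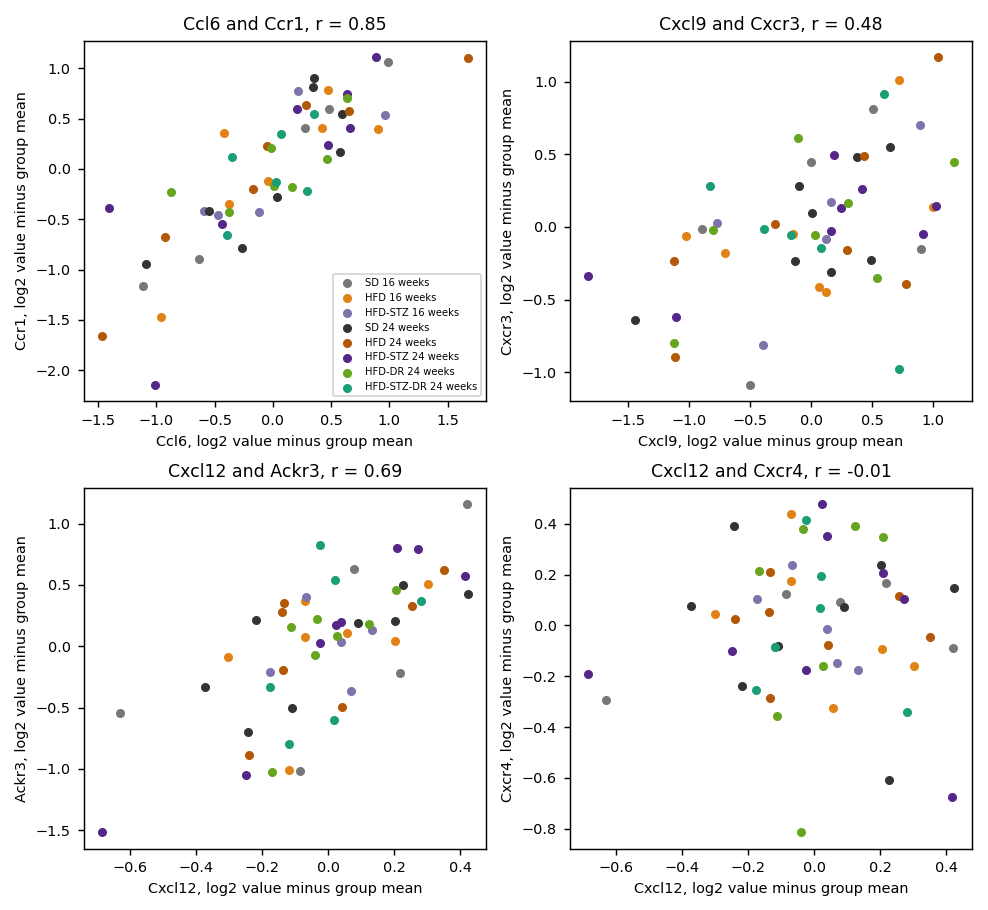
Log2 values minus the group mean of a ligand (x axis) and its receptor (y axis) in 53 nerves coloured by group, for 4 pairs. Ccl6 and Ccr1 (r = 0.85) and Cxcl12 and Ackr3 (r = 0.69) lie along a rising line, Cxcl9 and Cxcr3 (r = 0.48) more loosely, and Cxcl12 and Cxcr4 (r = -0.01) show none.

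The same values were set beside the marker means. Across 53 nerves with group means removed, 24 of 41 members (58.5%) correlated with the macrophage marker mean at a permutation p under 0.05 adjusted over all genes and both lists, against 37.5% of 18065 genes, and 22 of the 24 positively (53.7% of members, 19.4% of genes). With the adipocyte marker mean it was also 24 of 41, against 33.6% of 18067 genes, and 21 positively (51.2% of members, 17.4% of genes). The 2 marker means themselves had r = 0.67. Ccr2 had r = 0.90 with the macrophage mean (rho = 0.89, adjusted permutation p = 0.000121, r = 0.88 without the 2 nerves farthest from its median) and r = 0.62 with the adipocyte mean (rho = 0.60). Ccl9 (r = 0.87 and 0.79), Ccl6 (0.87 and 0.80), Ccl8 (0.78 and 0.69) and Cxcl13 (0.79 and 0.81) followed both. Cxcl14 had r = 0.84 with the adipocyte mean (rho = 0.83). Cxcl11 and Ccl27a ran against both, with r = -0.67 and -0.68 for macrophage and -0.72 and -0.67 for adipocyte markers, and their reads are uncertain as given above. Cxcr4 and Cx3cl1 did not follow either mean at that p. Cxcr4 had r = 0.19 and 0.06, and Cx3cl1 had r = -0.09 and 0.06, with adjusted permutation p-values from 0.268 to 0.760. The part of either cell type in these relations was not tested.

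**Figure D5:**
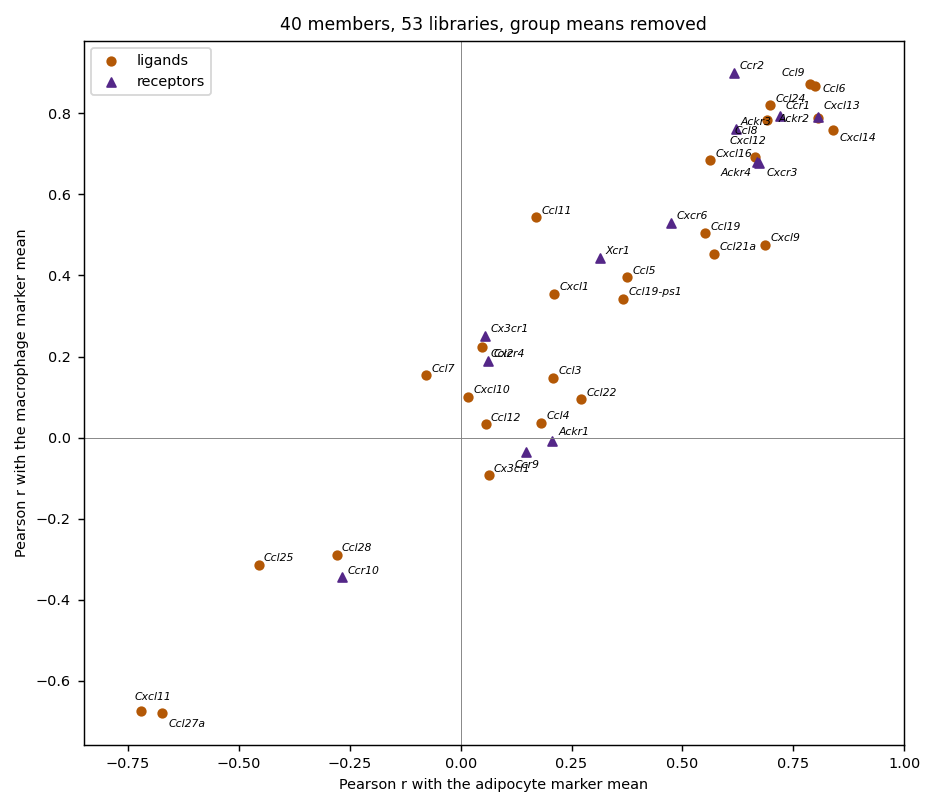
Pearson r of 40 of the 41 members with the adipocyte marker mean (x axis) and the macrophage marker mean (y axis) over 53 nerves with group means removed, circles for ligands and triangles for receptors. Ccr2 (0.62, 0.90), Ccl6 and Ccl9 lie at the upper right, Cxcl11 and Ccl27a at the lower left, and Cxcr4 and Cx3cl1 near the centre.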

How the data were processed

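Sciatic nerve RNA of 53 mice was sequenced, and the labels name 8 groups but no replicate numbers, so replicates were numbered in accession order only. Per the labels and the study's methods, the authors aligned reads with HISAT2 to mm10, counted them with featureCounts and used DESeq2 (versions not given in the sources used here). The labels name the Illumina TruSeq mRNA kit and the methods SMART-Seq v4 without strand information, and which was used is not settled. The deposited files give 1 normalised log2 value for each gene, by a normalisation the files do not name, with values below 0 for low genes. These are not counts, so no count test was run.

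Differences were tested with limma 3.58.1 in R 4.3.3 (eBayes with trend) between the libraries of the compared groups, on genes with a mean of at least log2 of 10 (about 3.3) there, without 25 genes that reach above 22 in any library. P-values were adjusted by Benjamini-Hochberg over all genes tested, and single members also by exact two-sided permutation. The test was checked on simulated data, with normal values independent between genes and groups of 7 and 8. Smaller groups, correlated genes and outlying libraries were not simulated. Correlations used Python 3.11.15 and numpy 2.4.6. Positions, exon lengths and overlaps come from GENCODE M21. Library numbers in the titles form 8 runs of consecutive numbers (a gap over 5 starts a new run), each of 3 to 8 libraries from as many groups or nearly so.

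The members, gene lists and comparisons were chosen with earlier results of these data known. Named were the 5 members with the smallest p in each of 6 main comparisons, the 10 with the highest means, the members of 21 listed ligand and receptor pairs that pass the mean, and Ccl8. The values of 1 member, which stays in the counts, are not reported here. The paper's list that holds Ccl8 and Rgs1 was selected on these samples. Alternatives were no filter, a filter in every library, all 8 groups in 1 fit, that fit with run, eBayes without trend or robust, median centring, leaving out each library, and, added after seeing the data, 2 marker means as covariates.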

Additional observations from a re-analysis of the deposited data

Results flagged for a closer look

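For the 29 named members, 232 sets of values (1 gene in 1 group of 5 to 8 nerves) were searched for a nerve far from the others by Dixon's criterion, which chance meets in about 1 in 20 sets. It was met 16 times. Among receptors, Ackr1 stood at 9.21 in HFD-STZ 16 weeks replicate 2 (others 9.60 to 9.69), and Ackr3 at 10.48 in HFD 16 weeks replicate 7 (others 11.41 to 12.00) and at 10.60 in HFD-DR 24 weeks replicate 7 (others 11.55 to 12.08). Cxcr3 stood at 5.27 in HFD 16 weeks replicate 1 (others 3.81 to 4.40). Ccl11 was low at 12.24 in SD 16 weeks replicate 1 (others 12.77 to 12.90) and at 12.23 in HFD-DR 24 weeks replicate 1 (others 12.72 to 12.89). Ccl22 stood at 5.405 in SD 24 weeks replicate 3 (others 4.45 to 4.86) and at 4.14 in HFD-STZ 24 weeks replicate 7 (others 4.95 to 5.67), the library that stood apart. Ccl4 stood at 4.58 in SD 16 weeks replicate 3 (others 3.18 to 3.57) and at 2.85 in HFD 16 weeks replicate 4 (others 3.47 to 3.85). Ccl5 stood at 3.40 in SD 24 weeks replicate 8 (others 4.09 to 4.58). Ccl7 was high at 10.07 in HFD 24 weeks replicate 4 (others 8.83 to 9.28) and at 9.61 in HFD-STZ 24 weeks replicate 4 (others 8.65 to 9.10), and low at 8.78 in HFD-STZ 16 weeks replicate 3 (others 8.87 to 8.90). Among the interferon-inducible ligands, Cxcl10 stood at 8.14 in SD 24 weeks replicate 7 (others 6.30 to 7.17) and Cxcl9 at 3.625 in SD 24 weeks replicate 4 (others 4.94 to 5.72).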

How the results depend on the processing

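No member was called in the pairwise fits, and 384 of 389 alternatives gave the same count. With all 8 groups and the run of library numbers in 1 fit, 1 member (Cxcr4) passed in HFD against SD at 24 weeks (0.62, adjusted p = 0.0486). Cxcr4 also passed in HFD-DR against HFD in the fit of all 8 groups (1 member, -0.75, adjusted p = 0.0407) and with run added (1 member, -0.77, adjusted p = 0.0225). Leaving out 1 library gave 0 to 2 called members in HFD-STZ-DR against HFD-STZ, namely Ccl19 without HFD-STZ 24 weeks replicate 6, and Ccl19 and Cxcl9 without replicate 7. The counts at the unadjusted p were less stable, and 84 of their 389 alternatives moved by over 1.5 times or moved from or to 0. Beside leaving out libraries, they ranged from 2 to 9 in HFD-STZ against SD at 16 weeks, 6 to 14 in HFD against SD at 24 weeks (14 with no filter), 2 to 8 in HFD-STZ against SD and 2 to 12 in HFD-STZ against HFD at 24 weeks, 1 to 8 in HFD-STZ-DR against HFD-DR (1 with all 8 groups in 1 fit), 1 to 9, 2 to 5 and 3 to 8 with age in SD, HFD and HFD-STZ, and 1 to 7 for the difference of DR effects. At this p, the 9 members of HFD-DR against HFD became 4 with the macrophage marker mean as a covariate and 5 to 14 without 1 library. The 13 of HFD-STZ-DR against HFD-STZ became 4 with the adipocyte mean and 9 to 18 without 1 library, and the 16 of HFD-STZ-DR against SD became 1 with the adipocyte and 7 with the macrophage mean. With the adipocyte mean, the HFD-STZ-DR differences of Cxcl13, Ccl9 and Ccl6 from HFD-STZ changed sign, to 0.00545, 0.0452 and 0.11. The cause of these changes was not tested. Of 675 alternatives for single members, 666 kept direction and side of the threshold, and the 7 ligand and receptor pairs became 6 by Spearman's rho, 5 without the 2 farthest nerves and 7 with run removed. The labels give no replicate numbers to pair nerves by. The run of library numbers was used as a block in the fit of all 8 groups only, as given above. A run holds 3 to 8 libraries from 3 to 8 groups, so not every run holds each group. Without read counts the depth is unknown, so precision rests on the 5 to 8 nerves of each group.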
